A study of Mus musculus with 4 samples.

Results

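The regions described here are the MyoD peaks that were called in mouse myotubes kept without pyruvate and that share no base with any peak called in myotubes kept with pyruvate. They were 10783 of the 19338 peaks in the without-pyruvate list (55.8%), and of 31245 peaks in both lists. The remaining 8555 peaks of that list touch a with-pyruvate peak and are called the overlapping peaks. The with-pyruvate list holds 11907 peaks. The regions were chosen by measured peak positions alone, so their lack of overlap is no finding. Width, which bears on how easily peaks touch, is given as a description.

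Chromatin came from primary myoblasts of C57BL/6 mice aged 2 weeks that had been differentiated for 5 days into myotubes, the multinucleated fibres formed by fused myoblasts, and then kept for 24 hours in differentiation medium either lacking or holding pyruvate, the end product of glycolysis. Each condition gave 1 MyoD ChIP library, made with antibody SC-760, and 1 input, and neither input was analysed here. There were no replicates and sequencing depth was not known. A site may therefore be bound with pyruvate and still not have been called there, and no p-value was computed. Intervals beside shares are 95% binomial intervals by the exact (Clopper-Pearson) method. They hold counting error alone and are too narrow, since neighbouring peaks are not independent. Conditions follow the sample titles, while an abbreviation in the deposit can be read the other way and no measured value settles which is right.

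MyoD is a basic helix-loop-helix factor that switches on the skeletal muscle programme. It binds DNA as a dimer with an E protein at E-boxes, short sites written CANNTG, and prefers the forms CAGCTG and CAGGTG. In myotubes it is found near muscle genes and also at many other places in genes and between them, many of which have no known effect on a neighbouring gene.

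The promoters below show what sequence lies at start sites covered by these regions. They belong to the 5 genes nearest the top of the list of regions of 250 bases or wider lying over a gene start whose symbol was matched in the RefSeq promoter table used, which is not complete. Each promoter runs from 250 bases before to 50 after the start, on build GRCm38.p6. The peaks themselves are on build mm9, and the start in the deposited files may differ from that of RefSeq. Picalm, on the plus strand at chr7:90129963-90130262, encodes a clathrin assembly protein. Cops6, plus strand at chr5:138160852-138161151, encodes a subunit of the COP9 signalosome. Ube2cbp, minus strand at chr9:86464867-86465166, encodes a ubiquitin ligase. Gatm, minus strand at chr2:122611228-122611527, encodes the first enzyme of creatine synthesis, and Herpud2 lies on the minus strand at chr9:25151732-25152031. Capitals mark every CANNTG.
Picalm: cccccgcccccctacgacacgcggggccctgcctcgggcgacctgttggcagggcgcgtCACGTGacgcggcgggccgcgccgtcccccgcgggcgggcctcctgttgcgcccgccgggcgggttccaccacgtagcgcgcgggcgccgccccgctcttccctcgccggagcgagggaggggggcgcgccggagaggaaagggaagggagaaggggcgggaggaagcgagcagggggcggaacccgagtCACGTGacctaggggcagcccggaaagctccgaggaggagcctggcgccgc
Cops6: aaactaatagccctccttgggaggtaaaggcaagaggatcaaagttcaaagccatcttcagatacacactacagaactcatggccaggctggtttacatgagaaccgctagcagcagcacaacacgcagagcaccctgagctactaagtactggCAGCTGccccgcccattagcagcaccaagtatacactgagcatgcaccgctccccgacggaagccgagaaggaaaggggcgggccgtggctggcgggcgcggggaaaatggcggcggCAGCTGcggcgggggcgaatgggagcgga
Ube2cbp: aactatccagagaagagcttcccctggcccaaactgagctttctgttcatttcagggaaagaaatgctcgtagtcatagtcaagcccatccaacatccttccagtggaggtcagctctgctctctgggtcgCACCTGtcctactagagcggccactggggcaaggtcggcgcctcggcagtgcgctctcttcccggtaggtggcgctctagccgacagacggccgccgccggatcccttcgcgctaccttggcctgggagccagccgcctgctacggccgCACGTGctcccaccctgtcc
Gatm: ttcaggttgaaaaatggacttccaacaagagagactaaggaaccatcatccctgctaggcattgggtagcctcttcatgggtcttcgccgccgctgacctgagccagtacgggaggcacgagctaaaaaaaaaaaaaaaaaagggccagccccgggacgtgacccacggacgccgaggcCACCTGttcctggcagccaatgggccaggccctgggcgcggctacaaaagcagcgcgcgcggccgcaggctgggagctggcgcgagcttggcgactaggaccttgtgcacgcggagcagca
Herpud2: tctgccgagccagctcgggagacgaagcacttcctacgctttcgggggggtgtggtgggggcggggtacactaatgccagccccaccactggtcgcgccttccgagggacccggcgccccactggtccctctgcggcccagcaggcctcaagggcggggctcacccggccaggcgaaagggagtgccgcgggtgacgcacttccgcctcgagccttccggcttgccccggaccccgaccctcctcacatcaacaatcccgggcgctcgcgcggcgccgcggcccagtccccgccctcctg

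Among these 5 promoters, Cops6 held 2 copies of CAGCTG, and Ube2cbp and Gatm held 1 CAGGTG each, read on the opposite strand as CACCTG. Picalm held 2 E-boxes of the form CACGTG, Ube2cbp held 1 of that form as well, and Herpud2 held no CANNTG. Over all regions that cover a located gene start, 154 genes were hit, and RefSeq promoters were matched by symbol for 88 of them. CAGCTG was present in 41 of the 88 (46.6%, interval 35.9 to 57.5), in 51 of 100 matched promoters with an overlapping peak over the start (51.0%, 40.8 to 61.1), and in 16.1% of the 27025 promoters of the table. CACGTG, which has the same base composition, was in 10 of the 88 (11.4%), in 13 of the 100 and in 7.24% of all promoters. The promoters at starts with a region had a median GC content of 60.5%, those with an overlapping peak 60.7% and all promoters 52.7%, and the part of GC content in the letters found was not tested.

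The letters CAGGTG or CACCTG were in 19 of the 88 promoters (21.6%, 13.5 to 31.6), in 27 of the 100 with an overlapping peak (27.0%) and in 20.0% of all. CANNTG of any form was in 77.3%, 85.0% and 72.1%, and the form CATATG in 1, in 0 (an upper limit of 3.62% by the interval) and in 3.91%. Split by width, CAGCTG was in 4 of 18 promoters under regions of 250 bases or wider (22.2%, 6.41 to 47.6). It was in 37 of 70 under narrower ones (52.9%, 40.6 to 64.9). CANNTG of any form was in 10 of the 18 (55.6%, 30.8 to 78.5) and in 58 of the 70 (82.9%, 72.0 to 90.8). In each pair the intervals overlap, but that is no test of a difference, and none was run. CAGGTG or CACCTG was in 22.2% and 21.4%, CACGTG in 11.1% and 11.4%, and CATATG in 1 and in 0 promoters. The 5 promoters printed above are all of the wider class. All searches covered both strands, the searches for CACGTG and for CATATG and the split by width were added after the first counts were seen, and a match is a description of letters in a window, not of a bound site.

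The regions were narrower than the overlapping peaks of the same library. Their median width was 212 bases (interquartile range 179 to 255), against 289 bases (234 to 362) for overlapping peaks and 250 bases (205 to 315) for the with-pyruvate list. Of the regions, 2996 were 250 bases or wider (27.8%, interval 26.9 to 28.6) and 7787 were narrower, whereas 68.2% of overlapping peaks (67.2 to 69.2) were 250 bases or wider. The narrow regions had a median of 194 bases and the wide ones a median of 287 bases, with a maximum of 1132. In all they covered 2447 kb, against 2674 kb for the smaller number of overlapping peaks.

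The share of without-pyruvate peaks that lacked a partner fell with each width bin from 170 bases up. It was 82.9% below 150 bases, 84.4% from 150 to under 170, 78.4% to under 200, 67.1% to under 250, 48.2% to under 300, 27.3% to under 400, 18.6% to under 500 and 12.5% (interval 10.1 to 15.1) from 500 bases. Some single widths recurred often. Of the 461 peaks of exactly 160 bases 396 were without a partner, and of the 290 peaks of exactly 144 bases, the narrowest width of the list, 241 were, while the with-pyruvate list has no peak of either width. The narrowest peak of the with-pyruvate list had 169 bases. Peaks found only in the with-pyruvate list were narrow too, with a median of 218 bases (3352 peaks) and 31.3% (29.8 to 32.9) of 250 bases or wider.

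**Figure D1:**
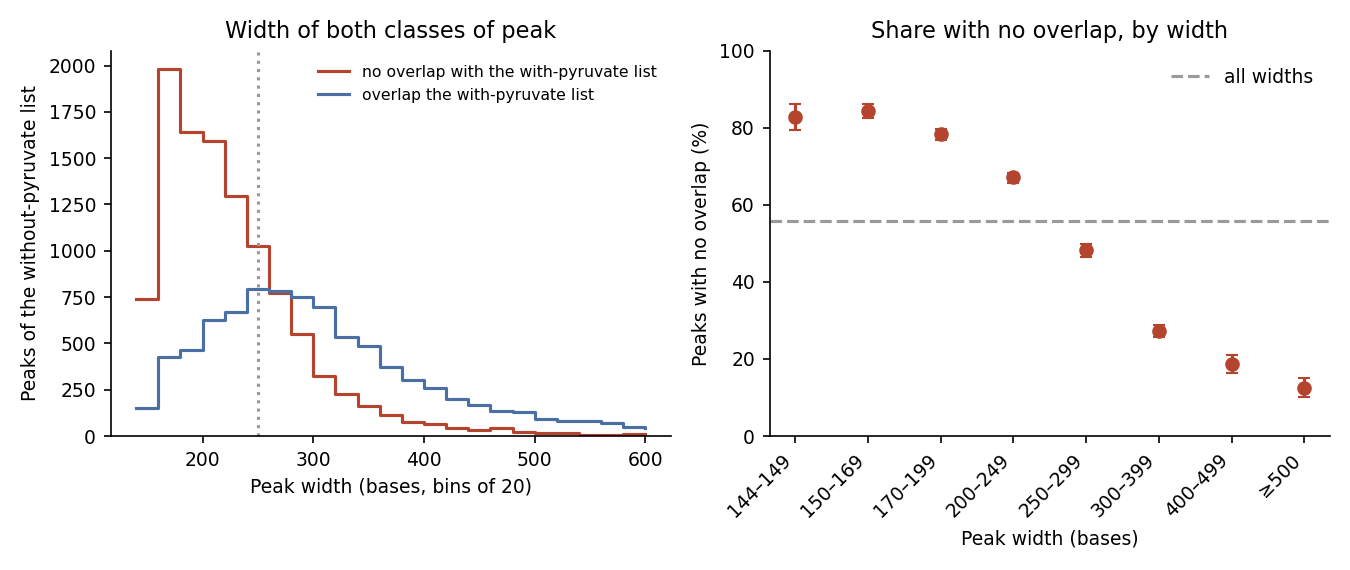
Left, number of without-pyruvate peaks by width in bins of 20 bases up to 620 bases, for peaks with no overlap with the with-pyruvate list (red) and peaks with an overlap (blue); the dotted line is at 250 bases. Right, share of peaks with no overlap in each width class with exact 95% intervals and the share over all widths, 55.8%, as a dashed line; the share is 82.9% in the narrowest class and 12.5% in the widest.

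Few of the regions sat at the edge of the rule. The 5 nearest lay 9, 14, 21, 33 and 37 bases from a with-pyruvate peak, the first at chr2:121943842-121944046 in Patl2 and Spg11, and 25 lay within 100 bases. Just outside the rule, the 5 smallest overlaps were 1, 6, 17, 18 and 29 bases, the first at chr15:25575385-25575580 in Myo10, and 32 overlaps were of 100 bases or less. Most regions lay further off than that: the median gap to the nearest with-pyruvate peak was 41.3 kb (interquartile range 11.6 to 119 kb), 4.93% lay within 1 kb (532 regions), 22.8% within 10 kb and 71.2% within 100 kb. Peaks found only in the with-pyruvate list had a median gap of 18.8 kb to the longer without-pyruvate list. The gap for sites placed at random was not computed. The largest gap of a region was 4714 kb.

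Wide and narrow regions differed little in this respect. The median gap was 43.2 kb for regions of 250 bases or wider and 40.5 kb for narrower ones, and the shares within 10 kb were 22.0% (20.6 to 23.6) and 23.1% (22.2 to 24.0). The nearest other region of the same kind lay at a median of 32.3 kb, nearer than the nearest overlapping peak of the same library at 52.2 kb, though overlapping peaks are fewer. Within 1 kb of another region lay 7.54% of the wide regions (6.62 to 8.55) and 5.96% of the narrow ones (5.44 to 6.51).

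**Figure D2:**
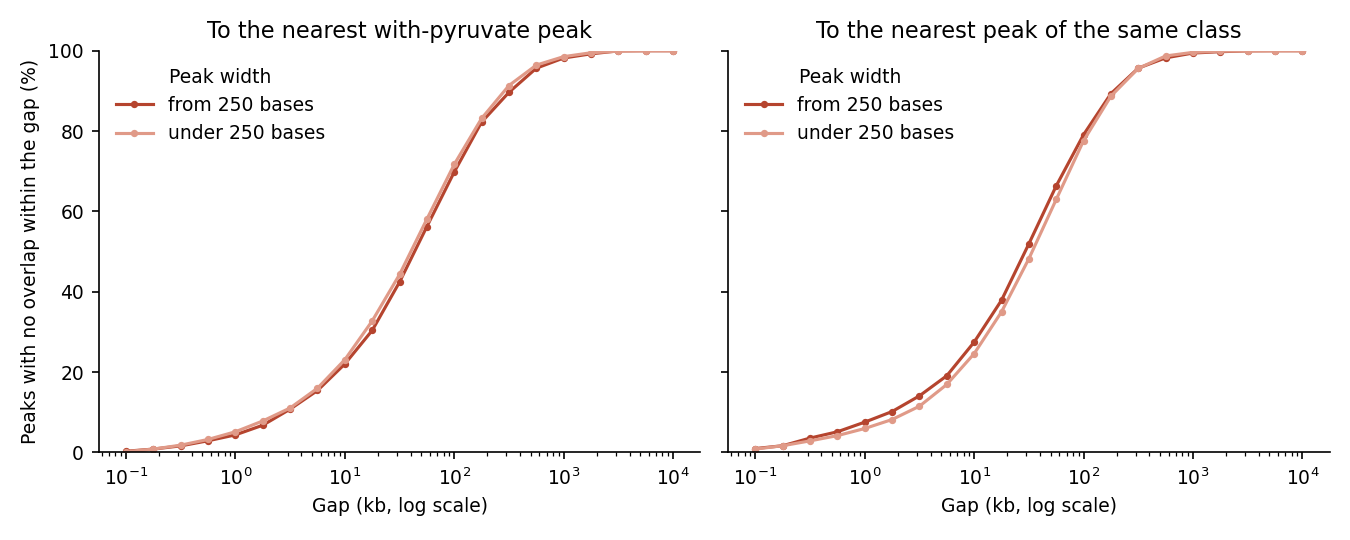
Cumulative share of peaks with no overlap (percent) against the gap in kb on a log axis, to the nearest with-pyruvate peak (left) and to the nearest peak of the same class (right), for peaks from 250 bases and under 250 bases. The curves of both width classes lie close together, with medians of 43.2 and 40.5 kb on the left.

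By position, the regions lay outside gene regions more often than the overlapping peaks, and near gene starts less often. Gene regions are the bodies and the flanks of 2000 bases that the deposited files list. In no gene region lay 4742 regions (44.0%, interval 43.0 to 44.9), against 37.5% of overlapping peaks (36.5 to 38.6) and 37.4% of the with-pyruvate list. Promoter-proximal means within 2 kb of a start located from a listed gene body, or in a flank of unknown side. Such were 1226 regions (11.4%, 10.8 to 12.0), against 14.2% of overlapping peaks (13.5 to 15.0). With located starts alone the shares were 6.48% (6.02 to 6.96) and 8.61% (8.03 to 9.23). Directly over a located start lay 154 regions (1.43%, 1.21 to 1.67) and 192 overlapping peaks (2.24%, 1.94 to 2.58). Of peaks near but not over a located start, 24.8% of the regions (135 of 545, 21.2 to 28.6) and 32.1% of overlapping peaks (175 of 545, 28.2 to 36.2) were upstream of it. A start was located only where a peak of either list touched the gene body. Upstream peaks of other genes are among the flanks of unknown side (629 regions and 581 overlapping peaks). Both upstream shares are therefore lowered by construction, and their difference was not tested. Another 44.0% of the regions (4748) lay in the rest of a gene body, against 47.4% of overlapping peaks.

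Peaks found only in the with-pyruvate list did not share this position. Of these 3352 peaks 36.7% (35.0 to 38.3) lay in no gene region and 13.8% (12.6 to 15.0) were promoter-proximal, beside 44.0% and 11.4% of the regions.

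The difference in position was present at either width. Among peaks of 250 bases or wider, 45.7% of the regions (43.9 to 47.5) and 39.4% of overlapping peaks (38.1 to 40.6) lay in no gene region. Among narrower peaks the shares were 43.3% (42.2 to 44.4) and 33.5% (31.8 to 35.4). Promoter-proximal shares were 10.1% of regions (9.02 to 11.2) and 12.7% of overlapping peaks (11.9 to 13.6) at 250 bases or wider, and 11.9% (11.2 to 12.6) and 17.5% (16.1 to 19.0) below. Within gene bodies of at least 10 kb, cut into 5 equal parts, the intervals overlapped. The part nearest the start held 23.5% of region and gene pairs (22.3 to 24.6) and 24.3% of those of overlapping peaks (23.1 to 25.5), and the part farthest from it 19.3% (18.2 to 20.4) and 18.6% (17.5 to 19.7).

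**Figure D3:**
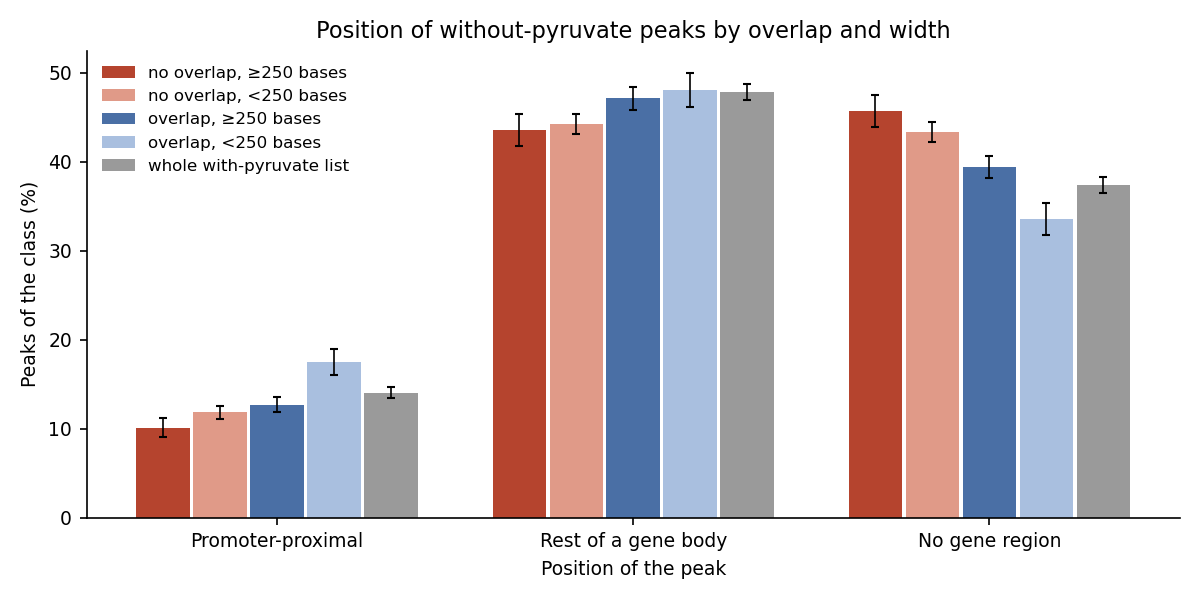
Share of peaks (percent, with exact 95% intervals) that were promoter-proximal, in the rest of a gene body or in no gene region, for without-pyruvate peaks without and with an overlap at 250 bases or wider and below, and for the whole with-pyruvate list. Peaks with no overlap lie in no gene region in 45.7% and 43.3% of cases, above both classes of overlapping peaks at 39.4% and 33.5%.

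The regions were spread over all autosomes and the X chromosome. On the autosomes they made up between 49.6% (chromosome 7, interval 46.5 to 52.8) and 59.2% (chromosome 14, 55.5 to 62.7) of the without-pyruvate peaks, around 55.8% overall. Chromosome 4 was also low, at 51.4% (48.5 to 54.4), and chromosomes 3 and 1 were high, at 59.1% and 58.4%. The X chromosome had the highest share, 64.4% (204 of 317 peaks, 58.8 to 69.6), and the fewest peaks of either kind: 1.23 regions per Mb, measured up to the last peak, against a median of 4.14 per Mb on the 19 autosomes (3.23 to 5.80), and 0.679 overlapping peaks per Mb against 3.43. The density of regions on X was thus 0.296 of the autosomal median and that of overlapping peaks 0.198. Chromosomes 15 and 11 had the densest regions, with 5.80 and 5.73 per Mb.

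Width and position also varied between chromosomes. The share of regions of 250 bases or wider ran from 23.3% on chromosome 7 to 33.5% on chromosome 15. Chromosome 11 had the highest promoter-proximal share of its regions, 18.4%, and the lowest share in no gene region, 33.8%. Chromosome 12 had the lowest promoter-proximal share, 6.38%, and chromosome 13 the highest share in no gene region, 57.0%.

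**Figure D4:**
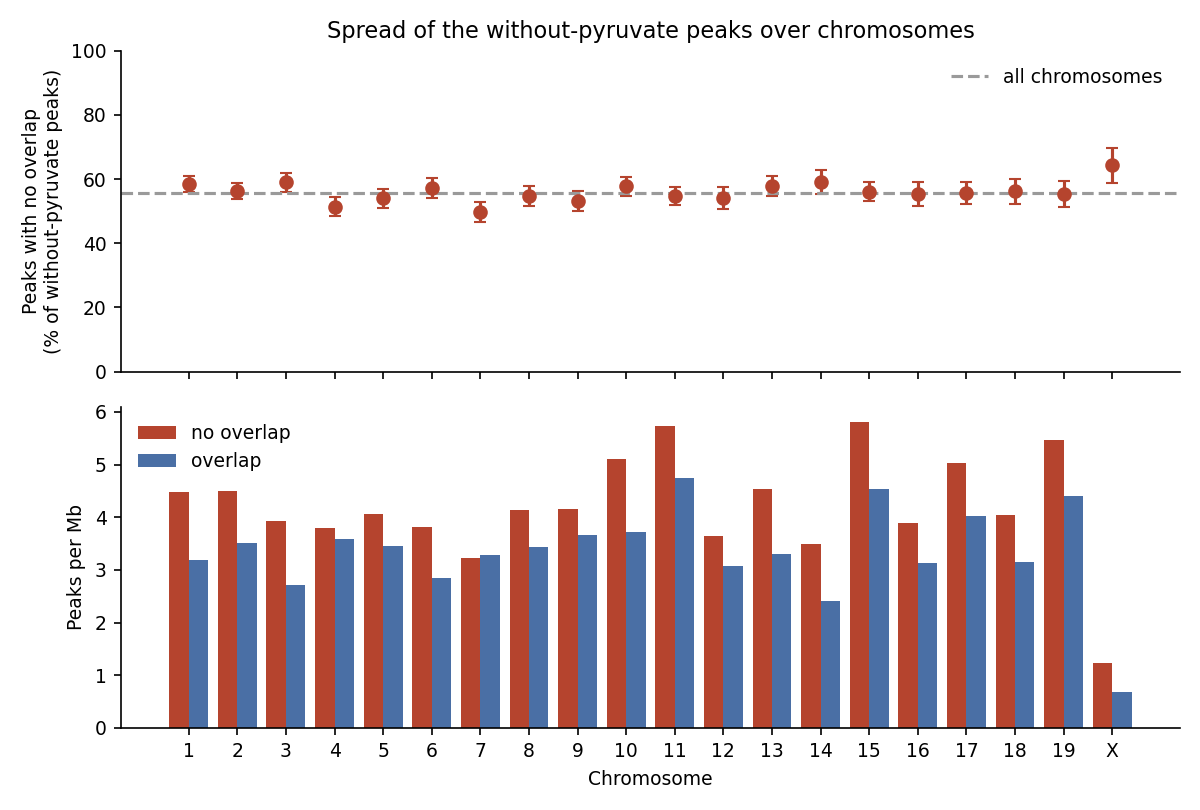
Top, share of each chromosome's without-pyruvate peaks with no overlap (percent, exact 95% intervals), with the share over all chromosomes as a dashed line. Bottom, peaks per Mb up to the last peak of the chromosome, without and with an overlap; X has 1.23 and 0.679 per Mb.

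Most windows of 100 kb with a region held a single one, although 78.0% of the regions had another within 100 kb. Of the 6915 windows that held a region, 4373 held 1 (63.2%), 1659 held 2 and 292 held 4 or more, and 3537 held no with-pyruvate peak. The share of all windows with no with-pyruvate peak was not computed, and the with-pyruvate list is the shorter. The last count therefore describes these windows and is no trait of the regions. The window with most was at chr19:6300001-6400000, with 13 regions of 170 to 295 bases beside 6 overlapping and 7 with-pyruvate peaks. It holds Pygm, the muscle glycogen phosphorylase that breaks down glycogen. Pygm alone had 12 regions within 12.6 kb, with 4 overlapping peaks of the without-pyruvate list and 4 peaks of the with-pyruvate list. Next came chr11:99600001-99700000 with 9 regions of 180 to 732 bases, chr7:25200001-25300000 with 8, and chr1:92500001-92600000 and chr11:99700001-99800000 with 7 each. Both windows on chromosome 11 and that on chromosome 1 had no overlapping and no with-pyruvate peak.

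The windows on chromosome 11 cover genes of keratin-associated proteins, the Krtap family, which form the matrix of hair. Of 19 Krtap genes named in the files, 18 had a region and 17 had no with-pyruvate peak. Along the 393 kb of chromosome 11 from the first to the last peak at such a gene, there were 25 regions with a median width of 351 bases (166 to 732), 18 of them 250 bases or wider, beside 3 overlapping and 3 with-pyruvate peaks. All 4 Krtap genes named on chromosome 7, Krtap5-2 to Krtap5-5, also had a region and no with-pyruvate peak. These genes are near-identical copies of each other in places, so reads cannot always be assigned to a single copy and each count is uncertain.

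Of the 10783 regions, 5415 lay in the body or flanks of 1 gene, 581 in those of 2, 41 in those of 3 and 4 in those of 4 or more. They touched 4286 of the 7235 genes named in either file (59.2%). Of these, 2529 genes (35.0%) had no with-pyruvate peak in the body or flanks, and 1757 also had such a peak. Of the 2529 genes, 723 had a region of 250 bases or wider. A single region was present in 3024 genes, 2 in 722, 3 to 5 in 471 and 6 or more in 69. Genes with a region and no with-pyruvate peak were shorter than those with both, with median listed bodies of 40.1 kb (1914 genes) and 98.7 kb (1715 genes), and genes with a with-pyruvate peak and no region had 32.3 kb (2145 genes). Regions were 57.8% (55.2 to 60.3) of the without-pyruvate peaks in bodies of 300 to 1000 kb, 53.8% (52.1 to 55.4) in bodies of 100 to 300 kb and 391 of 782 peaks (interval 46.4 to 53.6) in bodies under 10 kb. In bodies from 1000 kb the share was 55.0% (49.4 to 60.4), so it did not rise with length throughout.

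The 10 genes with most regions all had with-pyruvate peaks too. Their lengths are as the deposited files list them. The longest, those of Gm20388 and Fgfr2, were not checked against another annotation and may be wrong, in which case regions of neighbouring genes are counted in. Gm20388, a predicted gene listed with 4435 kb, had 61 regions, 60 overlapping peaks and 98 with-pyruvate peaks. Fgfr2, a fibroblast growth factor receptor listed here with 3009 kb, had 22 regions, 18 overlapping peaks and 27 with-pyruvate peaks. Then followed Dlgap2, a scaffold protein of the synapse, with 14, the RIKEN gene 1700112E06Rik and Pygm with 12 each, Galnt2, which starts O-linked glycosylation, and Pde4d, a cAMP phosphodiesterase, with 11 each, Dlgap1 with 10, and Arhgap22 and Cdh13, a cadherin, with 9 each. Itpr2 also had 9 regions, level with the last of these 10 genes, and is not counted among them. Per 100 kb of listed body Pygm stood highest of these 10 genes, with 85.3 regions, and Galnt2 next with 9.62, against 0.731 for Fgfr2. At Arhgap22, 3 of the 9 regions lay within 2 kb of the start, 209, 220 and 186 bases wide, and none of its 3 with-pyruvate peaks did.

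Among genes with no with-pyruvate peak, 2098 had 1 region, 320 had 2, 66 had 3, 32 had 4, 5 had 5 and 6 had 6. Cadm4, a cell adhesion molecule of the immunoglobulin family, and Rere, a nuclear co-regulator of transcription, had 8 each, the highest number. The regions of Cadm4 were 315 bases wide upstream of the start (chr7:25265162-25265477, 1565 bases away) and 206, 244, 217, 418, 274, 238 and 162 bases wide in the body, those 7 within 4.41 kb of each other in a gene of 22.5 kb. The 8 regions of Rere, of 144 to 356 bases, were spread over a body of 340 kb instead. Among the genes with 6 regions each were Slc44a5, a choline transporter-like protein, Adra1b, the alpha 1b adrenergic receptor, Car10, a carbonic anhydrase-related protein, Ptk2b, a focal adhesion kinase relative, and Glis3, a zinc finger factor. Slc44a5 had the widest of these, 662 and 524 bases (chr3:153815431-153816093 and chr3:153873415-153873939). Cpa6 and Iqcj had 5 each.

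Of the 10 widest regions, 5 were in no gene region and 5 were at genes. The first 3 were in no gene region: 1132 bases at chr16:94919858-94920990, 769 at chr14:63965343-63966112 and 754 at chr10:121845860-121846614, the last 391 kb from any with-pyruvate peak. The others of the top 10 were at Krtap4-9 (732 bases), Fbxl13 (695), in no gene region on chromosomes 2 (687) and 8 (685), in an unnamed gene on chromosome 2 (684), and at Slc44a5 (662) and Krtap9-5 (659).

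Near gene starts or in flanks of unknown side, 1383 genes had a region and are counted as having a promoter-proximal one. Of the 7235 genes, 1264 (17.5%) had one with no promoter-proximal with-pyruvate peak, of which 167 had a with-pyruvate peak elsewhere in the gene or its flanks. With located starts alone the 1264 genes became 649. In 427 genes the with-pyruvate list, the shorter one, alone had a promoter-proximal peak. Of regions of 250 bases or wider, 36 lay over a located start. Those centred closest to it were at an unnamed gene beside Sertad4 (250 bases), at Picalm (293 bases, chr7:97278585-97278878) and at Cops6 (291 bases, chr5:138602162-138602453). Then came Ube2cbp (267 bases), Ins2, which encodes insulin (271 bases, chr7:149885260-149885531), an unnamed gene on chromosome 12 (251 bases), the kinase-like gene Pxk (283 bases), Gatm (294 bases), Herpud2 (359 bases) and the keratin gene Krt80 (343 bases). Gatm and Krt80 also had with-pyruvate peaks, 1 and 2, and the others had none. At Gatm the region (chr2:122436862-122437156) lay 0.145 kb from a with-pyruvate peak of 311 bases, and that peak overlapped another without-pyruvate peak of 312 bases.

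Among the 11 gene lists used, glycolysis and sarcomere had the smallest shares of genes with a region. Counts are of genes named in the files, to be read against 59.2% of all named genes with a region and 35.0% with a region and no with-pyruvate peak. Of 31 sarcomere genes named, 8 had a region and 0 lacked a with-pyruvate peak. These were Pdlim3, Myom1, Myl1, Mybph, Tnnt2, Xirp1, Ldb3 and Mylk2, with widest regions of 256, 240, 236, 233, 205, 195, 169 and 165 bases. Regions made up 9 of the 46 without-pyruvate peak and gene pairs of the list (19.6%), against 52.4% over all genes. Myl1, a fast myosin light chain, had a promoter-proximal region (949 bases from its start, chr1:66990793-66991029) and with-pyruvate peaks only further away. It was the 1 gene of the list with a promoter-proximal region and no promoter-proximal with-pyruvate peak. In 6 genes of the list the with-pyruvate list alone had a promoter-proximal peak. Over all genes these counts were 1264 and 427. The median listed body was 21.1 kb for these genes and 47.8 kb for all.

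Of 36 genes of excitation, synapse and fusion, 13 had a region (36.1%) and 2 lacked a with-pyruvate peak: Clcn1, the chloride channel of the muscle membrane, with 2 regions of 200 and 184 bases whose ends overlap, and Casq2, a calcium-binding protein of the sarcoplasmic reticulum, with 184 bases. The widest regions of the list were at Cacna2d1, a calcium channel subunit (359 bases), Ryr3, a calcium release channel (4 regions, up to 283 bases), Jam2 (243) and Bin1 (233). Cdon and Jam2, surface proteins of myoblasts, had a promoter-proximal region, 843 and 905 bases from the start, and no with-pyruvate peak there. In 5 genes of the list the with-pyruvate list alone had a promoter-proximal peak. Of 15 glycolysis genes, 3 had a region, Hk2 (301 bases), Pygm (295) and Pfkp (214), and all 3 also had with-pyruvate peaks. By peaks, however, the share of regions in that list was 44.1% (15 regions and 19 overlapping peaks), 12 of the 15 regions being at Pygm. The median listed body of the list was 22.3 kb.

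Of 18 myogenic regulators, 8 had a region (44.4%), and Six4 (204 bases) and Id2 (228) had no with-pyruvate peak. The 3 widest were promoter-proximal. Eya2, a cofactor of homeodomain factors such as Six4, had 415 bases upstream of its start (chr2:165478941-165479356), Rb1, the retinoblastoma protein that holds cells out of the cycle, had 300 bases (chr14:73724936-73725236, 393 bases from the start), and Eya1 had 294 bases over its start (chr1:14300257-14300551). All 3 had with-pyruvate peaks only elsewhere in the gene. Snai1 (275 bases) had a promoter-proximal with-pyruvate peak as well. Of 23 satellite cell and Notch genes, 11 had a region (47.8%). Rbpj, the DNA-binding factor of Notch signalling (274 bases), Megf10 (269), Notch2 (261) and Sdc4 (248) had the widest, and Cxcr4 (203), Itgb1 (169) and Sdc3 (215) had no with-pyruvate peak.

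Pyruvate and citrate cycle genes had a region in 8 of 15 named cases (53.3%), and 6 of the 15 had no with-pyruvate peak. Among these were Aco1, the cytosolic aconitase (300 bases, chr4:40118522-40118822), Got1, an aspartate aminotransferase (258 and 229 bases, both in flanks), Pdk4, the kinase that inhibits pyruvate dehydrogenase (236 bases, chr6:5445886-5446122, 187 bases from its start), Sdhb, a subunit of succinate dehydrogenase (178, in a flank), and Suclg2, a subunit of succinyl-CoA synthetase (172). Of those named here, Aco1 and Got1 had a region of 250 bases or wider. Me3 (302 bases) and Me1 (270), which encode malic enzymes, had a region and with-pyruvate peaks too.

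Secreted factors and cytokines had a region in 9 of 16 named genes (56.2%) and 4 without a with-pyruvate peak. Fgf1 (409 bases), Tgfb2 (321), Fgf7 (239) and Sparc (221) had the widest. Csf3, which encodes G-CSF, the factor in the title of the study, had 1 region of 193 bases in a flank of unknown side (chr11:98561346-98561539), with 35.0% of all regions narrower than it. It lay 17.3 kb from the nearest with-pyruvate peak. Sparc, Wnt4 and Bdnf were the others with no with-pyruvate peak.

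Among lists of other lineages, those of fibroblasts and neurons had a region in a larger share of genes than all genes (59.2%), and those of blood and endothelium and of liver did not. By peaks, the share of regions was 55.6% for fibroblast genes (15 regions and 12 overlapping peaks), near the 52.4% over all genes. For neuronal genes it was 62.9% (22 and 13). Of 15 fibroblast and connective tissue genes, 11 had a region (73.3%) and 7 had no with-pyruvate peak: Col3a1, Col5a1, Col5a2, Dcn, Dpt, Ly6a and Tnc. Their regions ran from 148 bases at Col5a1 to 322 at Col5a2, and the widest of the list was at Fbn1, fibrillin 1, with 485 bases (chr2:125129645-125130130) in a gene with 3 with-pyruvate peaks. Of 12 neuronal genes, 10 had a region (83.3%) and 5 no with-pyruvate peak, among them Tubb3, Nefm, Mapt and Syn1, and Syn1 (310 bases), Dlg2 (305), Nrxn3 (288) and Gria1 (270) had the widest. The median listed body of the neuronal genes was 319 kb, and the part of gene length in their count was not tested. Of 7 genes of blood and endothelium, 4 had a region (Cdh5, Ptprc, Tek and Pecam1) and 1 had no with-pyruvate peak, Ptprc (260 bases). Of 3 liver genes, Cps1 had a region (254 bases) and no with-pyruvate peak. Each list is short, so these are counts in 1 library against 1 and no list was tested.

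**Figure D5:**
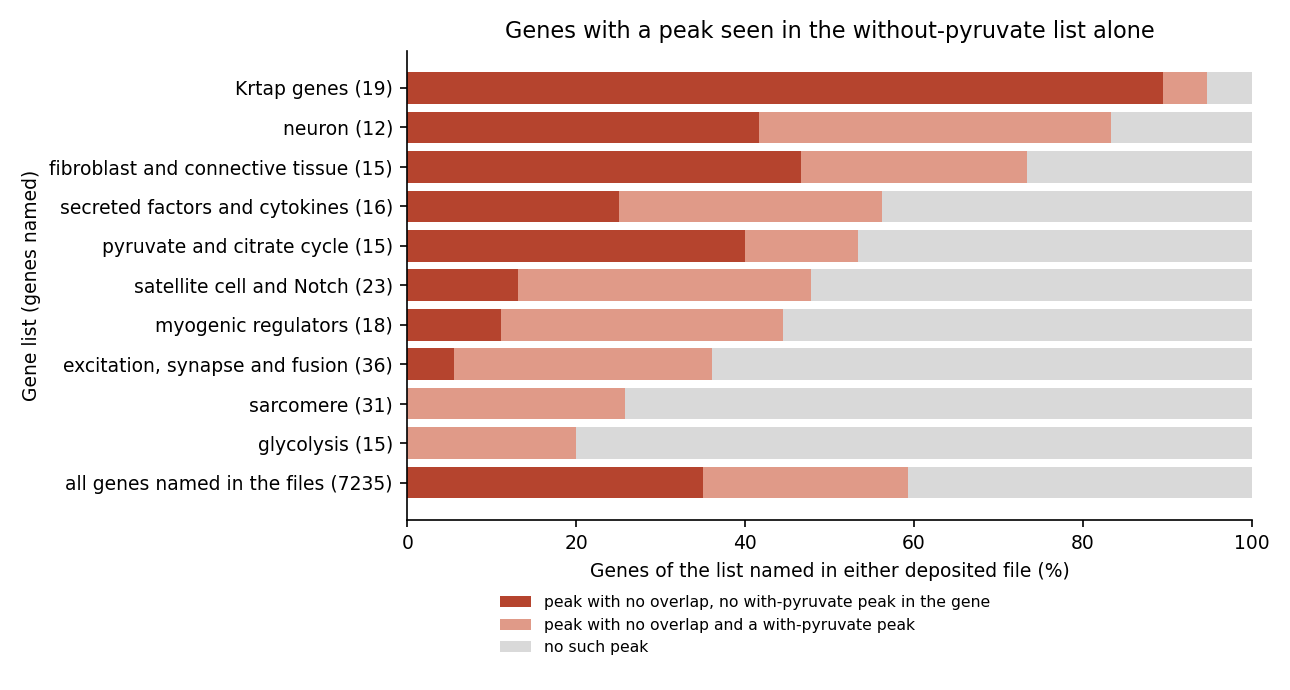
For each gene list with at least 10 genes named in the files (number in brackets), the share of genes (percent) with a peak with no overlap and no with-pyruvate peak, with such a peak and also a with-pyruvate peak, and without such a peak. Sarcomere and glycolysis genes have 0 in the first class and Krtap genes 89.5%, against 35.0% of all genes.

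Pathway names in the deposited files covered 2103 of the genes, of which 1251 (59.5%) had a region and 685 (32.6%) had a region and no with-pyruvate peak. By number of genes the first was PI3K-Akt signalling, with a region in 101 of 161 genes (62.7%), then focal adhesion with 78 of 119 (65.5%), regulation of the actin cytoskeleton with 77 of 119 (64.7%), axon guidance with 73 of 103 (70.9%) and MAPK signalling with 71 of 123 (57.7%). Rap1 signalling (69 of 108), endocytosis (67 of 115), Ras signalling (66 of 105) and calcium signalling (54 of 86) followed. The next 3 were level, with 52 genes each: phospholipase D signalling (of 75, 69.3%), cGMP-PKG signalling (of 79, 65.8%) and cAMP signalling (of 87, 59.8%). Genes with no with-pyruvate peak were 45 of 161 in PI3K-Akt signalling (28.0%), 29 of 119 in focal adhesion (24.4%) and 34 of 103 in axon guidance (33.0%), near or below the 32.6% of all genes with a pathway. Many genes belong to several of these pathways.

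Examples from the PI3K-Akt and focal adhesion groups with no with-pyruvate peak were the cell cycle kinase gene Cdk6 with 4 regions (up to 292 bases), the matrix genes Thbs4 and Lamb1 with 3 each (282 and 238 bases), and the kinase gene Pik3cd with 2 (319 bases). In axon guidance Ntng1 had 4 (305 bases), and the repellent ligand gene Slit2 and the semaphorin gene Sema7a had 3 each (402 and 369 bases). In calcium signalling, Cacna1c, a voltage-gated calcium channel, had 2 (424 bases).

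Among the 49 pathways with at least 50 genes named, the share of genes with a region ran from 48.3% in HIF-1 signalling (28 of 58) to 78.8% in cell adhesion molecules (41 of 52), with a median of 62.8%. The share with no with-pyruvate peak was lowest in HIF-1 signalling, 15.5% (9 of 58), and highest in neuroactive ligand-receptor interaction, 44.3% (31 of 70), with 44.2% in cell adhesion molecules (23 of 52). Insulin signalling was also low, with a region in 37 of 71 genes (52.1%). Pathways nearer to the variable of the study have few named genes: a region was present in 4 of 8 genes of the citrate cycle, 6 of 9 of pyruvate metabolism, 8 of 22 of glycolysis and gluconeogenesis (36.4%) and 12 of 28 of oxidative phosphorylation (42.9%). In the same order, genes with a region and no with-pyruvate peak were 4, 2, 4 (18.2%) and 10 (35.7%), against 32.6% of all genes with a pathway. Genes of Jak-STAT signalling, the pathway used by G-CSF and other cytokines, had a region in 34 of 53 cases (64.2%).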

How the data were processed

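MyoD ChIP-seq was made from sonicated nuclei of primary myotubes, with 15 cycles of amplification and fragments of about 250 bp, per the labels' protocols. Tools named, per the submitters' processing notes, are bcl2fastq 2.19, Bowtie2 2.1.0 and MACS2 2.1.1, with build mm9. How peaks were thresholded, whether inputs entered the calls and which annotation was used is not given in the sources used here. Each deposited file has 1 row for a peak and each gene region it touches. Its deposited fold enrichment reads 0 wherever a number stands (0 exceptions), so no peak height or q was available.

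Rows were reduced to distinct peaks (20902 rows to 19338, and 13076 to 11907). A region had no base in common with the other list (minimum overlap 1 base). Width is end minus start. Genes were pooled by symbol, 7235 in all, and starts came from listed bodies, for 5774 genes. For flanks of genes with no listed body the side is unknown.

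The regions, the 11 gene lists (340 genes) and the comparisons were chosen with earlier results of these data known. The rule for named genes took the widest regions, those nearest a start, the genes, windows and pathways with most regions, up to 4 genes per list by width, Csf3, and peaks at the edge of the rule. Other list genes, pathway examples and pathways were named after their values were seen. A few genes that the rule takes are not reported here. Promoters came from RefSeq, matched by symbol. The overlap code was checked on simulated peaks. Intervals came from scipy 1.17.1 and figures from matplotlib 3.10.9, with pandas 2.3.3 and numpy 2.4.6 under Python 3.11.15.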

Additional observations from a re-analysis of the deposited data

How the results depend on the processing

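With 1 library per condition no test or replicate check was possible, and depth was unknown, so a region may be a site below detection with pyruvate. Of 27 alternatives, 14 stayed within bounds (1.5 times for counts, the 95% interval for shares) and 13 moved, each by a changed definition. Requiring only that no reciprocal overlap reach 50% gave 28.9% of regions at 250 bases or wider; thresholds of 200 and 300 bases gave 59.5% and 11.0%. Keeping only regions of 250 bases or wider left 2996, of which 10.1% were promoter-proximal and 45.7% in no gene region, and left 318 genes with a proximal region alone in place of 1264. With located starts only, the promoter-proximal share was 4.63% at 1 kb, 6.48% at 2 kb and 16.7% at 10 kb, and the genes were 494 at 1 kb and 649 at 2 kb. Counting bodies without flanks, 49.6% of regions lay outside genes. No paired analysis was possible because each condition has 1 ChIP library and the labels give no replicate numbers.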

Other observations

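Some gene families outside the lists were counted by the start of their symbols, against 59.2% of all named genes with a region and 35.0% with a region and no with-pyruvate peak. Cadherins and protocadherins had a region in 13 of 15 named genes (86.7%), and 5 (33.3%) had no with-pyruvate peak. Among these were Pcdh19 with 4 regions up to 420 bases wide and Pcdh9 with 3 up to 317. By peaks the family had 37 regions and 29 overlapping peaks, beside 6717 and 6090 over all genes. Listed bodies of the 13 genes ran from 42.9 kb (Cdh5) to 1041 kb (Cdh13), beside a median of 47.8 kb for all genes. The part of gene length in this count was not tested. Collagen genes had a region in 22 of 31 (71.0%) and 11 (35.5%) had no with-pyruvate peak, among them Col24a1 with 5 regions of 179 to 228 bases. By peaks they had 41 regions and 32 overlapping peaks. Col4a2, a basement membrane collagen, had 3 regions, 7 overlapping peaks and 8 with-pyruvate peaks. Genes of potassium channels and their partners had a region in 19 of 30 (63.3%), and Kcnv2 had the widest among those with no with-pyruvate peak, 347 bases in a flank.

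Solute carriers had a region in 73 of 118 genes (61.9%) and zinc finger genes named Zfp in 46 of 80 (57.5%), close to all genes, with 49 and 34 genes lacking a with-pyruvate peak. Vomeronasal receptor genes had a region in 5 of 7, odorant receptor genes in 4 of 8 and beta-defensin genes in 1 of 2, in each case with no with-pyruvate peak. These receptor families hold near-identical copies, so their counts are uncertain.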
